A study of Bos taurus with 43 samples.

Results

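The Arp2/3 complex is the assembly of actin-related proteins and accessory subunits that starts new actin filaments as branches on the sides of existing ones. Its subunit genes were followed here in the biceps brachii muscle of 43 male cattle. The rule took every gene probe whose gene name, description or RefSeq symbol was 1 of 8 subunit genes, namely ARPC1A, ARPC1B, ARPC2, ARPC3, ARPC4, ARPC5, ACTR2 and ACTR3. It found 7 of these 8 genes, with 1 probe each, among 15687 named genes and 21475 gene probes on the array. No probe was named for ARPC4, which was not analysed here. All 7 probes passed the filter on dim probes, as did 16338 of the 21475.

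The study asked whether muscle transcripts can reveal illicit corticosteroid treatment of beef cattle, and each array held the muscle RNA of 1 animal. The 4 suspected animals (S21, S54, S56 and S57) were slaughterhouse animals that the labels give as suspected of corticosteroid treatment, without an agent, dose or duration. The study reports the animals of these numbers as positive by thymus histology, with low residues of dexamethasone in their urine. The 21 unknown animals were slaughterhouse animals of undeclared treatment, and the commercial animals were mostly Charolais, Limousine or their crosses. The 5 control K animals (K7, K8, K10, K11 and K12) were untreated Charolais × Limousine bulls, all of the same age, and the 13 control C animals were untreated Holstein animals whose ages spanned several months. Both sets of controls came from earlier experiments, and breed differs along with the control C label. A piece of whole muscle mixes fibres with vessel, connective tissue, fat and blood cells.

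In the complex, ACTR2 and ACTR3 (the proteins Arp2 and Arp3) form the first subunits of the daughter filament, ARPC2 and ARPC4 make the core that grips the mother filament, and ARPC1, ARPC3 and ARPC5 bind around them. ARPC1A and ARPC1B are alternative forms of the same subunit. Activators of the WASP and WAVE families turn the complex on, whereas coronins and glia maturation factors help to take branches apart. In muscle the complex is known for its part in myoblast fusion, and ARPC1B is known as the form that blood cells use most. In the RefSeq annotation of the cattle genome, ARPC1B and ARPC1A are neighbouring protein-coding genes.

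Signals are given as log2 of the scanner's processed intensity after normalization over all 43 arrays, so that a difference of 1 is a 2-fold difference. They compare animals for a probe and do not rank genes by transcript number. Each probe had 2 spots, and the median difference between them ranged from 0.032 (ARPC2) to 0.14 (ACTR3) log2 units. The probes were well above background on all 43 arrays, except ACTR2 on the array of unknown animal 79, and none was saturated. Over the 43 animals the SD of the log2 signal was 1.17 for ARPC1A, 0.89 for ARPC3, 0.60 for ARPC5, 0.55 for ARPC1B, 0.40 for ACTR2, 0.34 for ACTR3 and 0.21 for ARPC2. The median SD of all 16338 probes was 0.63. ARPC1A and ARPC3 varied more than most probes, and the SD of ARPC2 stood at percentile 0.875 among them.

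Several arrays stood apart. In unknown animals 29, 39, 52, 61 and 76 the spike-in RNAs were dim, with a log2 mean over the 7 most abundant of 7.76 to 8.42, against 12.07 to 13.40 in the suspected and control animals. On the array of unknown animal 79 only 40.2% of spots were well above background. These 6 arrays are called the doubted arrays, and leaving them out was chosen after seeing the data. The groups also lay in different batches. The 43 arrays were on 19 slides scanned on 13 days, and control K was read on 2 scanners while all other arrays were read on another. Control K, control C and the slaughterhouse animals shared no slide and no scan day with each other, so batch and group cannot be told apart in those comparisons. The 4 suspected animals were all on 2 slides scanned on day 6, which they shared with 4 unknown animals (50, 78, 79 and 81). Their spread therefore holds no variation between scan days, and the p-values do not cover such variation for this group.

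**Figure D1:**
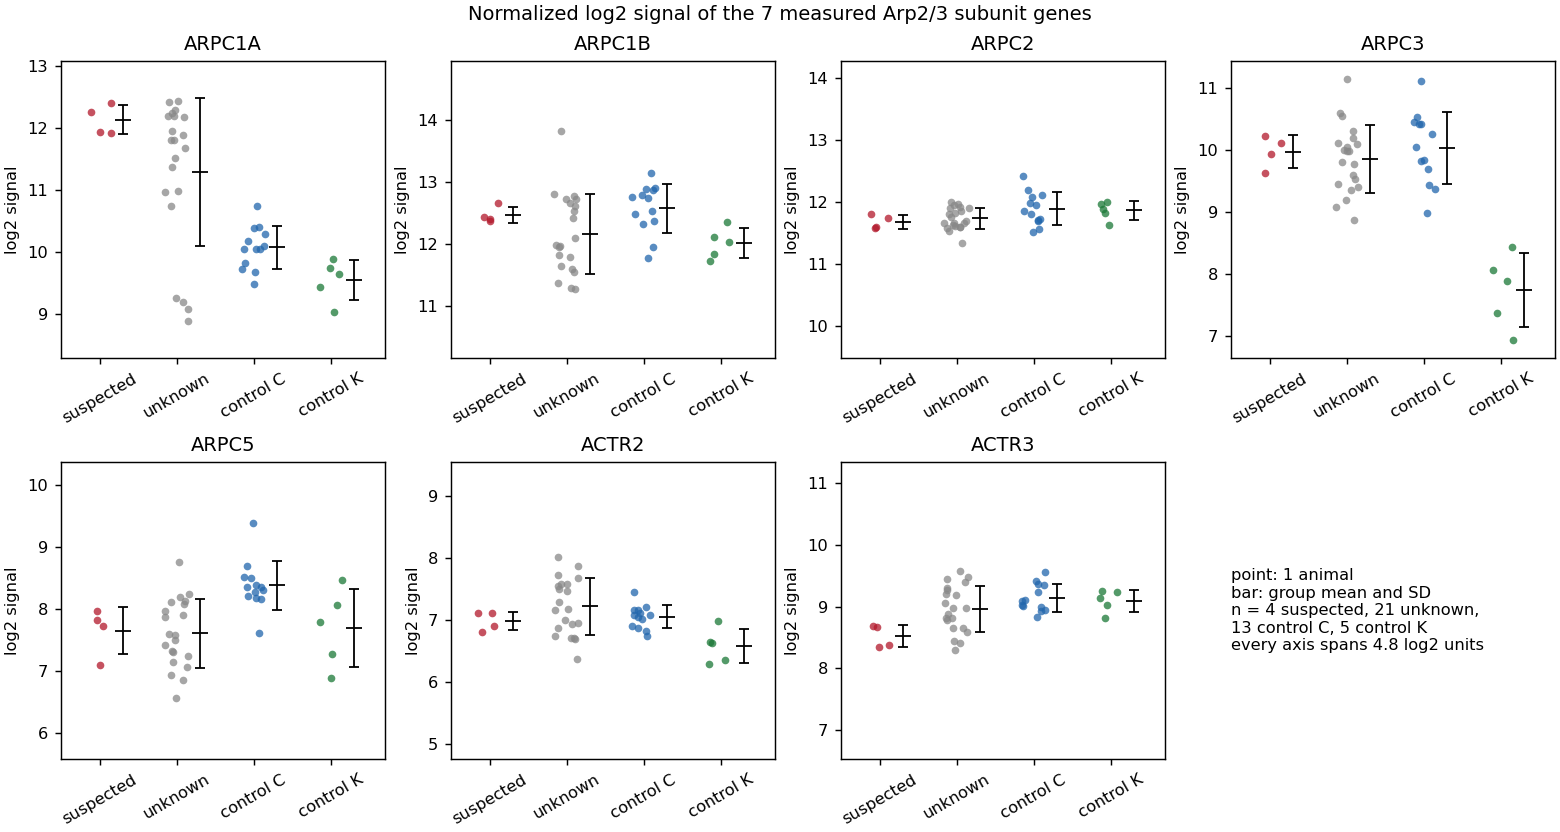
Normalized log2 signal (vertical axes, all of the same span) of the 7 measured subunit genes in 4 suspected, 21 unknown, 13 control C and 5 control K animals. Each point is 1 animal and the bars give the group mean and SD; ARPC1A is high in the suspected animals (11.93 to 12.41) and in most unknown animals, and ARPC3 is low in control K (6.93 to 8.44).

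ARPC1A, which encodes a propeller-shaped subunit that contacts activators, was the member that was higher in the suspected animals than in every animal of both control groups. Its log2 signal was 11.95 in S21, 12.41 in S54, 12.27 in S56 and 11.93 in S57. In control K it was 9.75 in K7, 9.45 in K8, 9.04 in K10, 9.64 in K11 and 9.89 in K12. In the 13 control C animals it ran from 9.48 over a median of 10.06 to 10.75, again below every suspected animal. The suspected mean differed by 2.59 from that of control K (SE 0.20, limma adjusted p = 6.04e-06), 6.0-fold higher, and by 2.06 from that of control C (SE 0.19, adjusted p = 3.18e-07), 4.17-fold higher. Both were called under every alternative tried, 21 of 21 and 16 of 16, with differences of 1.40 to 2.67 and 1.81 to 2.20. On the array of S21 a spot was marked as an outlier, and with both spots kept that animal had 11.66. In pieces of whole muscle, fewer cells of a type and less RNA per cell cannot be told apart.

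The unknown animals spanned the whole range of ARPC1A. Its log2 signal ran from 8.89 over a median of 11.81 to 12.45, and the widest gap, 1.49 units, separated 4 animals from 17. Animals 270, 269, 263 and 266 had 8.89, 9.08, 9.20 and 9.26, and the other 17 lay between 10.74 and 12.45. The low animals were all scanned on day 5, on 2 slides that also held animals 265 (10.74), 36 (11.52) and 58 (12.19). The spike-in means of the low animals were 11.80 to 12.13. Marker signals summed per animal differed along with this split for some cell types and not for others. In log2, adipocyte sums were 12.76 to 13.06 in the 4 low animals and 13.48 to 14.67 in the other 17. These sums lean on the single gene LPL, which had 11.63 to 12.24 in the low animals against 12.33 to 14.34. Endothelial sums were 11.38 to 12.05 against 11.91 to 13.92, and fibroblast sums 14.92 to 15.86 against 13.01 to 15.52. Satellite cell sums were 13.89 to 14.62 against 12.40 to 14.54. Leukocyte sums (12.29 to 13.20 against 11.34 to 14.09) and skeletal muscle sums (19.17 to 19.45 against 19.05 to 20.78) lay within the range of the other 17. The part of scan day, slide, array quality and other cells in these values was not tested. The unknown mean differed by 1.74 from control K (SE 0.52, 3.35-fold higher, limma adjusted p = 0.0172). That call held under 15 of 19 alternatives, and was lost without normalization (0.92, adjusted p = 0.186), without K10 (1.61, adjusted p = 0.0579), without the 6 doubted arrays (1.41, adjusted p = 0.0665) and without all 17 unknown arrays whose spike-in signal or share above background lay outside the range of the other groups (1.81, adjusted p = 0.058). Suspected and unknown means differed by 0.84 (SE 0.58, adjusted p = 0.347). On the 2 shared slides, with 2 animals against 2 on each, the difference was 0.25 on slide 9 and -0.14 on slide 10.

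**Figure D2:**
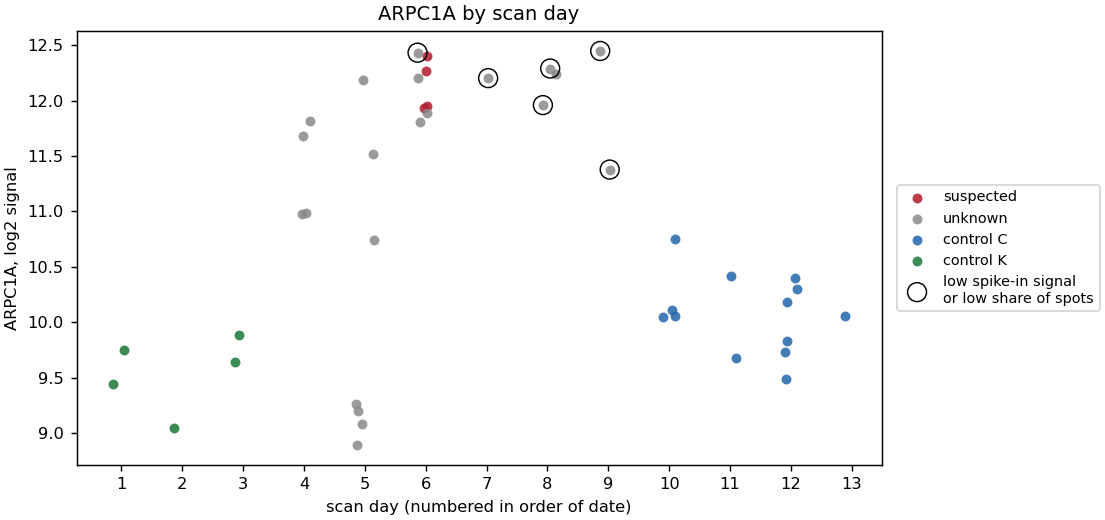
Log2 signal of ARPC1A (vertical axis) against the scan day of the array (horizontal axis, days numbered in order); each point is 1 animal, coloured by group, and circles mark the 6 doubted unknown arrays. The 4 unknown animals at 9.26 and below were scanned on day 5 together with 3 animals between 10.74 and 12.19, and neither control group shares a day with the suspected animals.

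In order of its mean, ARPC1A was 12.14 ± 0.24 in suspected animals (SD, n = 4), 11.29 ± 1.19 in unknown animals (n = 21), 10.08 ± 0.34 in control C (n = 13) and 9.55 ± 0.33 in control K (n = 5). Control C differed by 0.53 from control K (SE 0.18, limma adjusted p = 0.0219) with overlapping ranges. Without normalization that sign turned (-0.41), where the median of all probes was -1.04. The call held under 12 of 17 alternatives, and was lost with all 43 arrays in a single model (0.53, adjusted p = 0.372), with pairwise cyclic loess (0.38, adjusted p = 0.0898) and without K8 (0.50, adjusted p = 0.0523) or K10 (0.40, adjusted p = 0.0883). The difference between unknown animals and control C was not tested, and their ranges overlap.

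ARPC1B, the alternative form, did not separate the suspected animals from both control groups. Its log2 signal was 12.43 in S21, 12.67 in S54, 12.41 in S56 and 12.37 in S57. In control K it was 12.12 in K7, 12.36 in K8, 11.84 in K10, 12.04 in K11 and 11.73 in K12. The lowest suspected value lay just above the highest control K value. The suspected mean differed by 0.45 (SE 0.16, limma adjusted p = 0.0369). Without normalization its sign turned (-0.63), where the median of all probes was -1.08. The call held under 7 of 21 alternatives. It was lost without S21 (0.46, adjusted p = 0.0671), S54 (0.39, adjusted p = 0.103), S56 (0.47, adjusted p = 0.0619), S57 (0.49, adjusted p = 0.0538), K10 (0.41, adjusted p = 0.0663), K11 (0.46, adjusted p = 0.0569) or K12 (0.38, adjusted p = 0.079). It also rests on the choice of a spot. On the array of S21 a spot was marked as an outlier, and with both spots kept that animal had 10.05 and the group difference was -0.14, adjusted p = 0.818.

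Control C ran from 11.77 over a median of 12.75 to 13.14 for ARPC1B and differed by 0.56 from control K (SE 0.19, limma adjusted p = 0.0216). Without normalization the difference turned to -0.28, where the median of all probes was -1.04. That call held under 13 of 17 alternatives, and was lost without K10 (0.52, adjusted p = 0.0565) or K12 (0.49, adjusted p = 0.068). Unknown animals ran from 11.28 over a median of 11.99 to 13.83 and differed by 0.15 from control K (SE 0.29, adjusted p = 0.761). Neither control group lay apart from the unknown animals, whose range holds both.

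ARPC3, a small subunit that contacts Arp3, was low in control K. Its log2 signal there was 8.44 in K7, 8.07 in K8, 6.93 in K10, 7.89 in K11 and 7.37 in K12. The other 38 animals lay between 8.87 and 11.15, above every control K animal. It was 10.24 in S21, 9.63 in S54, 9.94 in S56 and 10.12 in S57. Control C ran from 8.99 over a median of 10.05 to 11.12, and unknown animals from 8.87 over a median of 9.99 to 11.15. The difference from control K was 2.24 in suspected animals (SE 0.29, 4.73-fold, limma adjusted p = 0.000134), 2.29 in control C (SE 0.29, 4.90-fold, adjusted p = 6.83e-06) and 2.13 in unknown animals (SE 0.27, 4.37-fold, adjusted p = 5.64e-06). Without normalization the differences were 1.0, adjusted p = 0.0543 in suspected animals, where the call was lost, 1.30 in control C and 1.30 in unknown animals. These comparisons share the same 5 control K animals. Suspected animals and control C differed by -0.053 (SE 0.29, adjusted p = 0.903), which did not pass the test. Scanner and scan day go with the control K label and cannot be told apart from it.

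ARPC5, a subunit that ties ARPC1 to the core, had its highest median in control C. It was 7.72 in S21, 7.96 in S54, 7.81 in S56 and 7.09 in S57. In control K it was 7.78 in K7, 8.46 in K8, 7.26 in K10, 8.05 in K11 and 6.87 in K12, a range that holds every suspected animal. Control C ran from 7.61 over a median of 8.35 to 9.38 and unknown animals from 6.55 over a median of 7.57 to 8.76. Suspected animals differed by -0.73 from control C (SE 0.22, 1.66-fold lower, limma adjusted p = 0.0156) with overlapping ranges, a call lost without S57 (-0.54, adjusted p = 0.0909) and with all 43 arrays in a single model (-0.73, adjusted p = 0.0588). Control C differed by 0.69 from control K (SE 0.24, adjusted p = 0.0225), or -0.40 without normalization, where the median of all probes was -1.04. That call held under 12 of 17 alternatives, and was lost without K10 (0.58, adjusted p = 0.0733) or K12 (0.49, adjusted p = 0.102).

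ARPC2, a core subunit, was the steadiest member over the 43 animals. Within control C its SD (0.26) was larger than those of ACTR2 (0.19) and ACTR3 (0.22). It was 11.74 in S21, 11.81 in S54, 11.60 in S56 and 11.58 in S57. In control K it was 11.63 in K7, 11.997 in K8, 11.97 in K10, 11.89 in K11 and 11.83 in K12. The groups overlap, and the difference was -0.18 (SE 0.13, limma adjusted p = 0.279). Control C ran from 11.52 over a median of 11.85 to 12.42 and unknown animals from 11.33 over a median of 11.70 to 11.995. No comparison of ARPC2 was called.

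ACTR3, which encodes Arp3, was the member that was lower in the suspected animals than in every control animal. Its log2 signal was 8.69 in S21, 8.66 in S54, 8.35 in S56 and 8.38 in S57. In control K it was 9.02 in K7, 9.24 in K8, 9.13 in K10, 9.25 in K11 and 8.81 in K12. Control C ran from 8.83 over a median of 9.08 to 9.56. The suspected mean differed by -0.57 from control K (SE 0.15, 1.48-fold lower, limma adjusted p = 0.0096) and by -0.62 from control C (SE 0.13, 1.53-fold lower, adjusted p = 0.00186), and both calls held under 21 of 21 and 16 of 16 alternatives. Unknown animals ran from 8.30 over a median of 8.97 to 9.57, a range that holds the suspected animals. They differed by -0.13 from control K (SE 0.18, adjusted p = 0.646). The suspected mean differed from theirs by -0.44 (SE 0.20, adjusted p = 0.195), and on the shared slides by -0.16 and -0.025.

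ACTR2, which encodes Arp2, was 7.10 in S21, 7.10 in S54, 6.81 in S56 and 6.90 in S57. In control K it was 6.35 in K7, 6.62 in K8, 6.98 in K10, 6.28 in K11 and 6.64 in K12, overlapping the suspected animals through K10. The difference from control K was 0.40 (SE 0.17, limma adjusted p = 0.0703), which passed the threshold without K10 (0.50, adjusted p = 0.02) and with pairwise cyclic loess (1.44, adjusted p = 0.000719). Control C ran from 6.73 over a median of 7.07 to 7.44 and differed by 0.47 from control K (SE 0.12, adjusted p = 0.00465). Without normalization that sign turned (-0.67), where the median of all probes was -1.04. That call was lost with 75th percentile scaling (0.25, adjusted p = 0.0742) and with quantile normalization (0.34, adjusted p = 0.064). Unknown animals ran from 6.37 over a median of 7.18 to 8.01 and differed by 0.64 from control K (SE 0.22, adjusted p = 0.0344). Without normalization the difference was -0.18, where the median of all probes was -0.74. That last call held under 8 of 19 alternatives. Of the animals left out, it was lost without K7 (0.59, adjusted p = 0.0983), K8 (0.65, adjusted p = 0.0656), K11 (0.57, adjusted p = 0.106) or K12 (0.66, adjusted p = 0.0649) as well as without the 6 doubted arrays (0.53, adjusted p = 0.111) or the 17 that lay outside the other groups' range (0.41, adjusted p = 0.195), and it was also lost with quantile normalization, in the authors' normalized table and with slide or scan day as a random block.

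**Figure D3:**
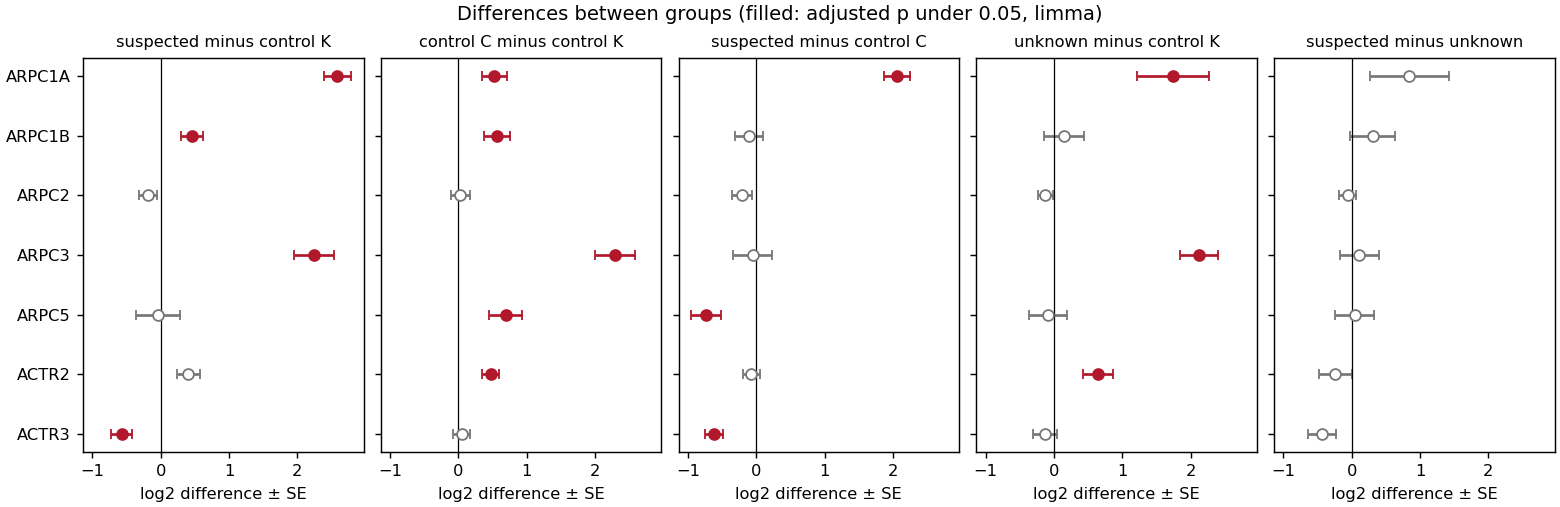
Log2 difference between groups (horizontal axes, mean ± SE from limma) for each subunit gene in the 5 comparisons; filled points have an adjusted p under 0.05. ARPC1A stands at 2.59 and 2.06 in suspected animals against the control groups, ARPC3 at 2.24, 2.29 and 2.13 against control K, and no point of suspected minus unknown is filled. The smaller positive differences of control C from control K turn negative without normalization, where the median of all probes was -1.04.

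Counted over the complex, suspected animals against control K had 3 subunit genes higher (ARPC1A, ARPC3, ARPC1B), 1 lower (ACTR3) and 3 not called, and 2 of the 4 passed 2-fold. In that comparison 51.5% of all 16338 probes were called, 25.5% higher and 26% lower, and 28.1% also passed 2-fold, so the share of members called lay near the background. For 4 members the groups did not overlap, as for 43.4% of all probes. Without normalization, where the median of all probes was -1.08, 1 was higher and 3 were lower. The median log2 difference was 0.40 over the members and -0.025 over all probes.

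The control groups, both untreated, differed in 5 of 7 members, all higher in control C (ARPC3, ACTR2, ARPC1A, ARPC1B and ARPC5), with only ARPC3 past 2-fold. Of all probes 48.4% were called, 23.9% higher and 24.4% lower, and 20.5% also passed 2-fold. Only ARPC3 had no overlap between the groups, against 16.2% of all probes. The count fell to 2 without K10 and to 3 without K12. Without normalization, where the median of all probes was -1.04, 1 was higher and 3 were lower. The median difference was 0.53 over the members and 0.011 over all probes.

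Suspected animals against control C had 1 member higher (ARPC1A, past 2-fold) and 2 lower (ACTR3 and ARPC5). Of all probes 36.4% were called, 17.8% higher and 18.7% lower, and 17.8% also passed 2-fold. ARPC1A and ACTR3 had no overlap, against 16.4% of all probes. Without S57 the count fell to 2. With pairwise cyclic loess the split was 2 higher and 2 lower, with ACTR2 called at 0.85. The median difference was -0.11 over the members and -0.045 over all probes.

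Unknown animals against control K had 3 members higher (ARPC3, ARPC1A and ACTR2), of which ARPC3 and ARPC1A passed 2-fold. Of all probes 22.1% were called, 11.4% higher and 10.7% lower, and 10.4% also passed 2-fold. ARPC3 had no overlap, against 4.24% of all probes, and without the 6 doubted arrays it was the only member called. Without normalization 1 was higher and 3 were lower, where the median of all probes was -0.74. In suspected against unknown animals limma called no member, 1 member (ACTR3) had an unadjusted p under 0.05, as did 23.6% of all probes, and no alternative called any. On the shared slides 9 and 10 ARPC1B differed by -0.33 and -0.77, ARPC3 by -0.57 and -0.50, and ARPC5 by -0.45 and -0.58. These are the reverse of the differences over all animals, which were 0.31 for ARPC1B, 0.12 for ARPC3 and 0.043 for ARPC5. Each slide compared 2 animals with 2. Slide 10 held unknown animal 79, a doubted array, and animal 78, the highest unknown animal in ARPC1B (13.83) and ARPC5 (8.76). Slide 9 held animal 81, the highest unknown animal in ARPC3 (11.15). With the slide as a block over the 8 animals of these slides the differences were -0.55, adjusted p = 0.426 for ARPC1B, -0.54, adjusted p = 0.488 for ARPC3 and -0.51, adjusted p = 0.475 for ARPC5 (limma). Over the 4 suspected and all 21 unknown animals, 0.049% of all probes were called and 0.324% had no overlap between the groups. With the slide as a block over the shared slides, 0 probes were called.

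Whether the other subunits follow ARPC1A was asked within a group, since the groups differ in level. Suspected animals and control K were too few for a correlation. In control C, Pearson's r with ARPC1A over 13 animals was 0.31 for ACTR2, 0.30 for ARPC1B, 0.12 for ACTR3, 0.11 for ARPC5, -0.01 for ARPC2 and -0.25 for ARPC3. Spearman's rho was 0.37, 0.31, 0.31, 0.088, -0.011 and -0.055 in the same order. None passed the permutation test (adjusted p = 0.638 to 0.974 for r and 0.462 to 0.978 for rho, over 12 correlations in both groups). Without normalization ACTR2 passed, with r of 0.74 (permutation test, adjusted p = 0.0197) and rho of 0.68 (adjusted p = 0.0389), and r of ACTR3 was 0.64 (adjusted p = 0.054). Without C41 and C48, the animals farthest in ARPC1A, r was 0.80 for ACTR3 (permutation test, adjusted p = 0.0474, 11 animals), with rho of 0.68 (adjusted p = 0.101), and 0.25 to 0.44 for the others. Centred on the scan day, r over the 13 animals was 0.61 for ACTR2, 0.53 for ARPC1B, 0.41 for ARPC5 and 0.25 for ACTR3. It was 0.002 for ARPC2 and -0.022 for ARPC3, and none passed (permutation test, adjusted p = 0.186 for ACTR2). Within the 6 animals of scan day 12, r was 0.34 for ACTR2, 0.44 for ARPC1B, 0.039 for ACTR3, -0.19 for ARPC5, -0.059 for ARPC2 and -0.45 for ARPC3. All other probes had quartiles of r of -0.22 and 0.19 in control C.

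The unknown animals fell into clusters of 4 and 17, so r is given for the 17 above the gap, a choice made after seeing the data. There r was 0.62 for ARPC1B, 0.62 for ARPC5 and -0.63 for ACTR3 (permutation test, adjusted p = 0.035 each). It was 0.54 for ARPC3 (adjusted p = 0.0766, permutation test), 0.17 for ACTR2 and 0.13 for ARPC2. Spearman's rho was 0.70 for ARPC1B, 0.66 for ARPC5, -0.54 for ACTR3, 0.49 for ARPC3, 0.12 for ACTR2 and 0.28 for ARPC2 (permutation test, adjusted p = 0.0286, 0.0304, 0.104, 0.142, 0.843 and 0.462). Such values were common among these animals, in which 17.3% of all probes had an r above 0.5 with ARPC1A and 18.6% an r under -0.5.

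The same relations were recomputed with fewer animals and after centring on the scan day. Without the 2 of the 17 animals farthest in ARPC1A, r was 0.54 for ARPC1B, 0.59 for ARPC5 and -0.42 for ACTR3, and none passed (permutation test, adjusted p = 0.151, 0.119 and 0.285) over the 15 animals left. Centred on the scan day, r was 0.27 for ARPC1B, 0.18 for ARPC5 and -0.40 for ACTR3, none of which passed, while ACTR2 reached 0.73 (permutation test, adjusted p = 0.00948). After centring, animals were shuffled across scan days without allowing for the day means removed. The p-values of centred correlations therefore tend to be too small, and the call of ACTR2 is not firm. Without the doubted arrays 11 animals remained and none passed, with r of 0.59 for ARPC1B, 0.57 for ARPC5, -0.67 for ACTR3 and 0.70 for ARPC3. The 17 animals were not recomputed under other normalizations, but over all 21 unknown animals r of ACTR3 was -0.71, and -0.18 without normalization (permutation test, adjusted p = 0.485). No scan day held 6 of the 17 animals, so no value within a day is given.

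**Figure D4:**
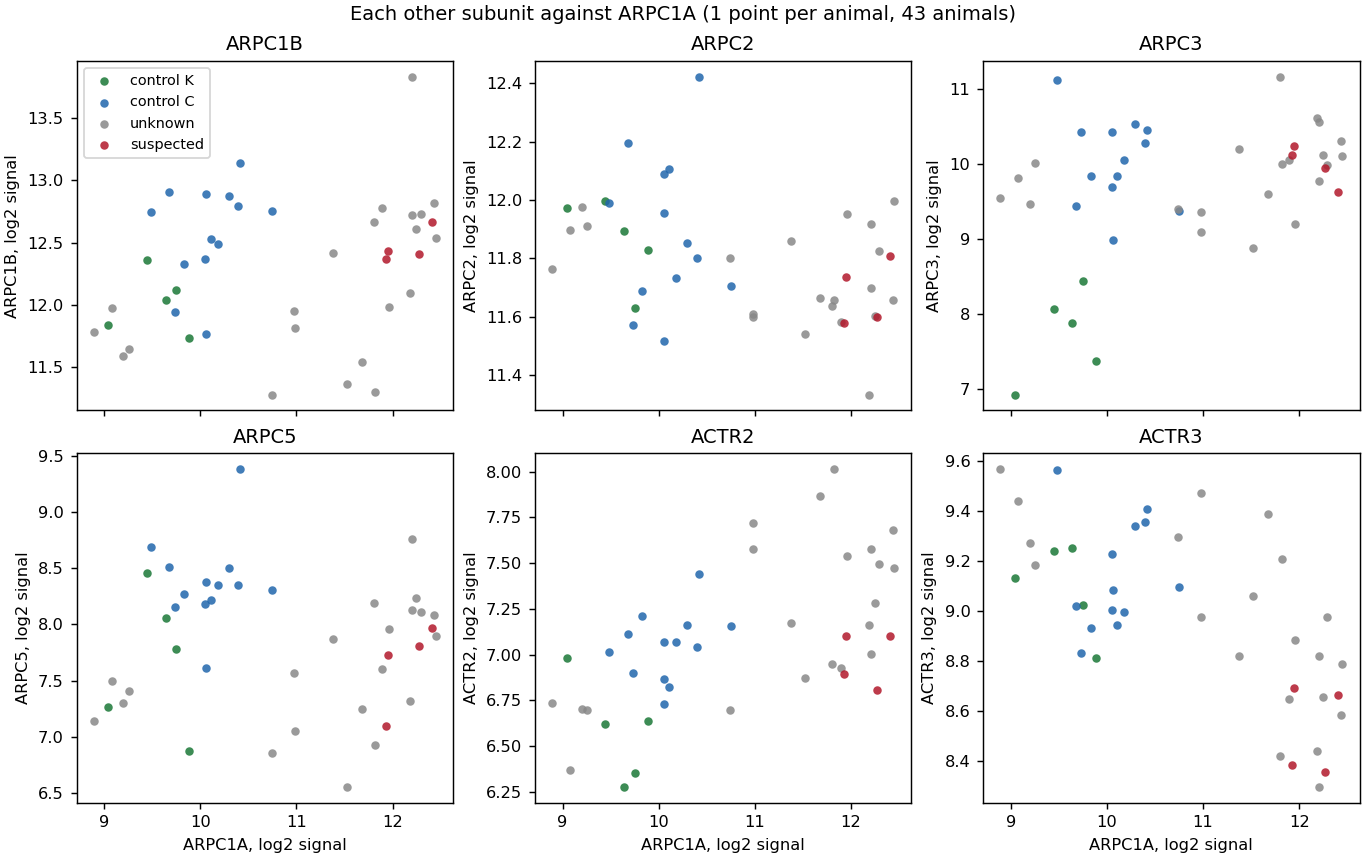
Log2 signal of each other subunit gene (vertical axes) against that of ARPC1A (horizontal axes) in 43 animals, coloured by group. ARPC3 sets control K apart, ACTR3 is 8.35 to 8.69 in the 4 suspected animals, and within the 13 control C animals r runs from -0.25 to 0.31.

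The genes whose signal was most like that of ARPC1A lay outside the complex. Over the 21 unknown animals, with the 4 low animals included, the highest r were 0.98 for RTN4IP1, a mitochondrial protein, 0.96 for RABEP2, 0.96 for RPRD2, 0.96 for NCOA6, a nuclear receptor coactivator, and 0.95 for LDHB, a lactate dehydrogenase subunit. Over the 13 control C animals they were 0.92 for CDC42EP1, 0.92 for DIXDC1, 0.91 for SLC5A3, an inositol carrier, 0.89 for AQP7, a glycerol channel, and 0.89 for NT5C2. Over the 17 unknown animals above the gap, r was 0.86 for RTN4IP1, 0.78 for RABEP2, 0.82 for RPRD2, 0.87 for NCOA6 and 0.79 for LDHB. These are descriptions of the top of 16328 probes, and the animals share slides and scan days.

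The genes around the complex stand against the shares of all probes called, which were 51.5% in suspected animals against control K (25.5% higher, 26% lower), 48.4% in control C against control K and 36.4% in suspected animals against control C. Counts near these shares say nothing particular of a list. Of the nucleation-promoting factors, which activate the complex, 9 of 11 listed genes passed the filter, and 3 were higher and 2 lower in suspected animals than in control K (median log2 difference -0.19, against -0.025 over all probes). WIPF2, a WASP-interacting protein, was not well above background in any control K animal and was at least 2.04-fold higher in suspected animals (limma adjusted p = 0.000199), a direction that turned with pairwise cyclic loess (-0.073). Such a limit sets the dim group at the lowest signal called well above background. JMY, an activator that also starts filaments itself, was 5.72 to 6.33 in suspected animals and 2.84 to 5.76 in control K (adjusted p = 0.00493), where 1 of 5 animals was well above background, so the size of its difference is not given. In control C, 4 were higher and 2 lower than in control K, with WHAMM, an activator on internal membranes, at 1.33, adjusted p = 1.12e-05. WHAMM differed by -1.52 between suspected animals and control C (adjusted p = 0.000264), where 1 was higher and 2 lower. In unknown animals against control K limma called 0 of the 9, and 1 had an unadjusted p under 0.05, as did 35% of all probes.

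All 8 genes of the WAVE regulatory complex passed the filter, and 2 were higher and 4 lower in suspected animals than in control K (median -0.058). The scaffold genes ABI2 (2.23, adjusted p = 4.72e-05, limma) and ABI3 (1.19, adjusted p = 8.75e-05) were higher, and NCKAP1L, the form known from blood cells, was lower (-1.85, adjusted p = 5.96e-05). Control C differed from the same control K animals by 1.55, 1.35 and -1.41 for these genes (adjusted p = 5.26e-06, 0.000222 and 5.22e-05). NCKAP1, the broadly used form, differed by -0.64 between suspected animals and control C (adjusted p = 0.000222).

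Of 12 genes that passed the filter and inhibit the complex or act on its branches, 2 were higher and 4 lower in suspected animals than in control K (median -0.36). CTTN, cortactin, which stabilizes branches, was lower than in control K (-0.60, adjusted p = 0.00559, limma) but higher than in control C (0.82, adjusted p = 0.00022), and control C was lower than control K (-1.42, adjusted p = 2.15e-07). The coronin CORO6 was lower than in control K both in control C (-0.94, adjusted p = 3.99e-05) and in unknown animals (-0.70, adjusted p = 0.000396). Of 15 genes for filament ends and monomer supply that passed the filter, 3 were higher and 5 lower in suspected animals than in control K (median -0.41). In control C 7 were higher and 4 lower than in control K. In suspected animals 1 was higher and 8 lower than in control C (median -0.40, against -0.045 over all probes). The capping subunit CAPZA2 differed by -1.05, adjusted p = 1.55e-05, and gelsolin (GSN), which severs filaments, by -1.71, adjusted p = 0.00041. Against control K, CAPZB differed by -1.95, adjusted p = 6.85e-06 and the thymosin TMSB10 by 1.70, adjusted p = 0.00034 in suspected animals, and by -1.25 and 2.11 in control C (adjusted p = 1.87e-05 and 1.99e-06).

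Other routes to filaments are set against the same 51.5% of all probes called. Of 13 other actin nucleators that passed, 5 were higher and 6 lower in suspected animals than in control K (median -0.11), among them leiomodin LMOD1 (-1.34, adjusted p = 5.95e-05, limma). Of 6 actins, 2 were higher and 3 lower (median -0.24), with ACTB, the general cytoplasmic actin, at -1.75, adjusted p = 6.10e-05 and ACTA1, the skeletal muscle actin, at 1.39, adjusted p = 0.000217. Of 7 actin-related proteins outside the complex that passed, 3 were higher and 1 lower (median 0.41), with ACTR10, a dynactin subunit, at 0.72, adjusted p = 0.0019, which turned to -0.55 without normalization. Of 12 measured genes of myoblast fusion, 3 were higher and 4 lower (median -0.16), with DOCK1, known from cell fusion, at 1.19, adjusted p = 0.000741, which turned to -0.079 without normalization. Without normalization the median of all probes was -1.08 in this comparison, for ACTR10 and DOCK1 alike. DOCK1 differed by 0.76, adjusted p = 0.000286 from control C. Of 3 listed paralogues of the subunits 2 were measured, and limma called none there while 1 had an unadjusted p under 0.05, as did 57.8% of all probes. ACTR3B, a relative of ACTR3, was lower in unknown animals than in control K (-0.91, adjusted p = 0.0122). In suspected against unknown animals limma called no gene of any of these lists, and those with an unadjusted p under 0.05 ranged from 0 of 2 paralogues to 3 of 6 actins, against 23.6% of all probes.

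**Figure D5:**
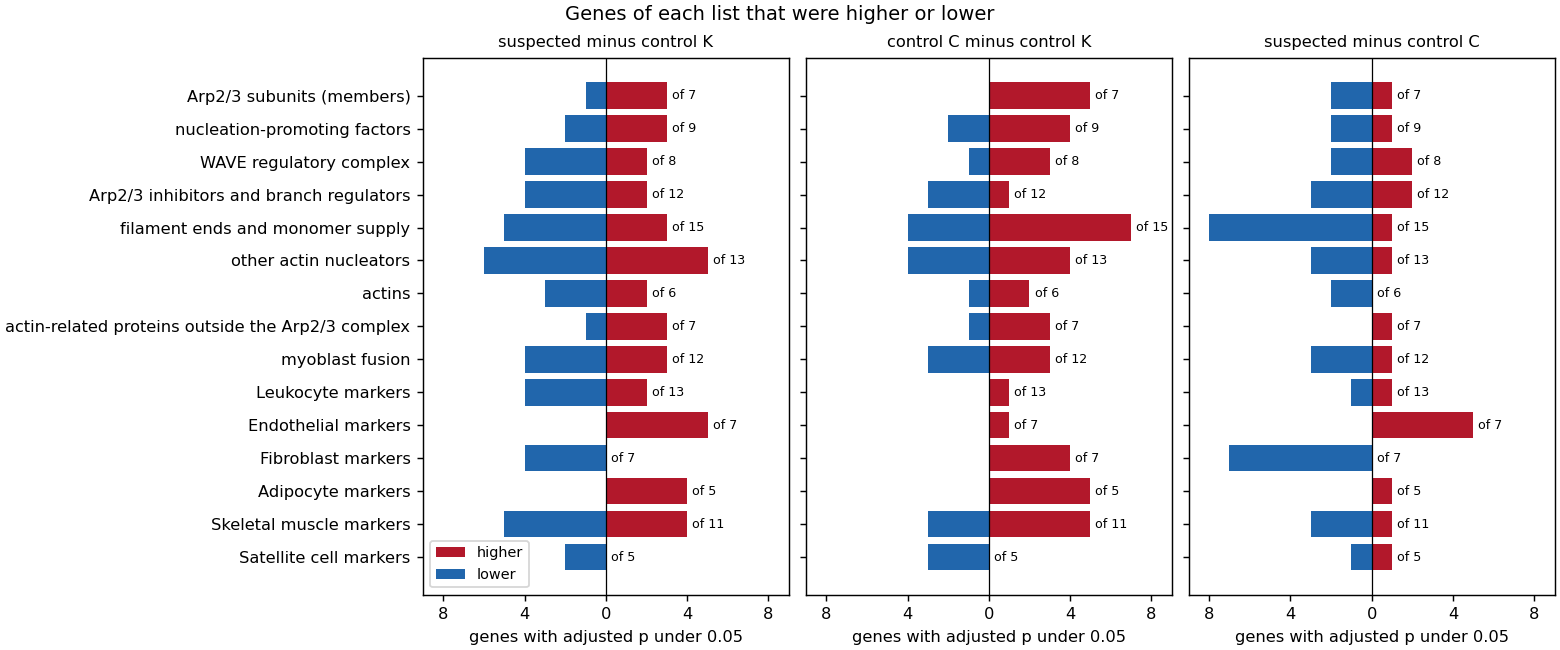
Number of genes of each list shown that were higher (right) or lower (left) with an adjusted p under 0.05 in 3 comparisons, beside the number that passed the filter. The subunits had 3 higher and 1 lower in suspected animals against control K, and fibroblast markers had 7 of 7 lower in suspected animals than in control C. Counts against control K shift toward lower without normalization, where the median of all probes was -1.08 in suspected animals and -1.04 in control C.

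Markers of other cells differed between the same groups. Of 7 fibroblast markers, 4 were lower in suspected animals than in control K and 7 lower than in control C, where 18.7% of all probes were lower, while 4 were higher in control C than in control K (2 higher and 1 lower without normalization). The log2 of their summed signal was 11.83 to 13.61 in suspected animals, 13.03 to 15.41 in control K, 14.50 to 16.01 in control C and 13.01 to 15.86 in unknown animals, and the probe of highest mean was that of DCN, decorin, in suspected and unknown animals and of the collagen COL1A1 in both control groups. Of 7 endothelial markers, 5 were higher in suspected animals than in control K, though none was higher without normalization, and 5 higher than in control C. Their sums were 12.58 to 13.55 in suspected animals, 11.42 to 12.40 in control K, 10.88 to 12.35 in control C and 11.38 to 13.92 in unknown animals, with VWF the highest in each group. Of 5 adipocyte markers that passed the filter (6 were measured and summed), 5 were higher in control C, 4 in suspected animals and 3 in unknown animals than in control K (1, 2 and 1 without normalization), with sums of 11.91 to 12.47 in control K, 12.71 to 13.98 in control C, 13.53 or more (median 13.82) in suspected animals and 12.76 to 14.67 in unknown animals, with LPL the highest in each group.

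Of 13 leukocyte markers, 2 were higher and 4 lower in suspected animals than in control K, with sums of 11.30 to 11.96 against 11.18 to 12.79, with CD74 the highest in suspected animals, unknown animals and control K and CSF1R in control C; the sums were 11.21 to 13.90 in control C and 11.34 to 14.09 in unknown animals. Skeletal muscle markers were bright everywhere, with all 11 well above background on every array, and myoglobin (MB) was the highest in each group. Their sums were 20.10 to 20.43 in suspected animals, 19.31 to 20.06 in control K, 20.19 to 20.49 in control C and 19.05 to 20.78 in unknown animals, and 4 were higher and 5 lower in suspected animals than in control K. The fast myosin MYH1 differed by -5.88 between suspected animals and control C (limma adjusted p = 2.95e-06). Among the suspected animals it ran widely, from 8.94 over a median of 10.82 to 15.24 (SD 2.70). Of 5 satellite cell markers, 0 were higher and 2 lower in suspected animals than in control K, MYOD1 by -1.75, adjusted p = 0.00084 and CDH15 by -0.69, adjusted p = 0.00892, and MYOG was the highest in each group. Between suspected and unknown animals limma called no marker, while 7 of 7 fibroblast and 5 of 13 leukocyte markers had an unadjusted p under 0.05, against 23.6% of all probes. The adipocyte markers ADIPOQ and LEP were not well above background in any control K animal, nor LEP in any control C animal, and every other marker was so on at least 1 array of each group. The part of these other cells in the subunit signals was not tested.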

How the data were processed

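The intensity values were deposited by the authors as scanner files, 1 per animal, in which Agilent Feature Extraction had subtracted background and detrended each array. Its version was 9.5.1.1, and for control K 9.1.3.1 on 2 arrays and 9.5.3.1 on 3. The authors' table of normalized intensity values served only as an alternative. Here, log2 intensities were normalized by fast cyclic loess (limma 3.58.1, R 4.3.3, span 0.7, 3 iterations) over 43 arrays and averaged over a probe's spots, without spots marked as outliers. Probes under 4 on at least 30 of 43 arrays were left out (5137 of 21475). Each comparison was fitted on its 2 groups with lmFit and eBayes, two-sided, with Benjamini-Hochberg adjustment over 16338 probes, and called at an adjusted p under 0.05. Correlations used 100000 permutations (two-sided), adjusted over 12. The tests were run on simulated data with independent arrays. These data held no slide or scan-day effects, so they could not check how the tests behave under such effects. Alternatives changed the normalization, background correction, filter, spots, batch terms and animals.

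Groups come from the labels. Named were all members, up to 3 called genes of each other list with the smallest adjusted p per comparison (the brightest probe of a gene), and the 5 genes most like ARPC1A in each group. Members and lists were chosen with earlier results of these data known. RefSeq (ARS-UCD2.0) named 13114 of 21475 probes, and the files' descriptions 3958 more. The number of arrays limits the precision. A further gene list that was tested is not reported here.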

Additional observations from a re-analysis of the deposited data

How the results depend on the processing

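Of 644 member differences recomputed under alternatives, 536 kept their sign and their side of the threshold, 41 lost a call, 7 gained a call, 49 changed sign between values that were not called, and 11 changed sign where either value was called. Those were ARPC1B in suspected minus control K (-0.63 without normalization, -0.14 with outlier spots kept, -0.12 in the authors' normalized table), control C minus control K without normalization (ACTR2 -0.67, ACTR3 -0.98, ARPC1A -0.41, ARPC1B -0.28, ARPC2 -0.84, ARPC5 -0.40), ACTR2 in unknown minus control K without normalization (-0.18), and ACTR2 in suspected minus control C with pairwise cyclic loess (0.85). Without normalization the median of all probes was -1.08, -1.04 and -0.74 in suspected, control C and unknown animals against control K, and -0.32 in suspected minus unknown. With pairwise cyclic loess it was -0.26 in suspected minus control K and -0.27 in suspected minus control C. The count of called members in control C minus control K (5) was 3 with 75th percentile scaling, 3 with quantile normalization, 3 with all 43 arrays in a single model, and 2 to 5 without each control K animal. That in unknown minus control K (3) was 1 without the 17 unknown arrays that stand apart in spike-in signal or share above background, 1 without the 6 doubted arrays, and 2 without each control K animal. It was 3 to 4 in suspected minus control K without each suspected or control K animal, and 2 to 3 in suspected minus control C and 0 in suspected minus unknown without each suspected animal, where control C and unknown animals were not left out in turn. ARPC3 in suspected minus control K was lost without normalization (1.0, adjusted p = 0.0543, limma). In suspected minus unknown, ARPC1A was 0.054 with the slide as a block over shared slides. Over all alternatives the number of probes called was 4916 to 12090 in suspected minus control K (8416 as reported), 6098 to 10784 in control C minus control K (7904), 3289 to 9815 in suspected minus control C (5949), 1916 to 6587 in unknown minus control K (3608) and 0 to 1722 in suspected minus unknown (8), where all 43 arrays in a single model gave 1352. The counts of 12090, 9815 and 1722 came from all 21475 probes, without the filter on dim probes. Among fits on 16338 probes the highest counts in those comparisons were 9867, 9248 and 1352. Over all 21 unknown animals, which pools the clusters, 2 correlations with ARPC1A were called by Pearson's r, ACTR2 (0.64) and ACTR3 (-0.71), and 1 with quantile normalization, while by Spearman's rho ARPC1B (0.68), ARPC5 (0.64) and ACTR3 (-0.72) were called. Centring all 21 on the scan day also called ARPC2 by r (-0.64). By rho that centring lost ARPC1B (-0.17), ARPC5 (-0.32) and ACTR3 (-0.43), with adjusted p = 0.613, 0.314 and 0.162 (permutation test). It called ACTR2 by rho (0.63, permutation test, adjusted p = 0.0329). Calls after centring are not firm, since the shuffling did not allow for the day means removed and such p-values tend to be too small. Without the 4 low animals 3 were called by r, all in unknown animals. Then 1 was called without the 2 farthest animals of each group, which was ACTR3 in control C and none in unknown animals. Centred on the scan day 1 was called, and 0 without the doubted arrays, where r of ACTR2 in unknown animals turned to -0.054. The cause of these changes was not tested. No paired analysis was possible because each animal belongs to a single group and the replicate numbers only name animals.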
